A study of Mus musculus with 6 samples.

Results

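Natriuretic peptides are hormones that heart muscle releases when its wall is stretched, and they lower blood volume and pressure and restrain growth of the muscle itself. Nppa encodes the atrial natriuretic peptide precursor and Nppb the B-type natriuretic peptide precursor. Corin, a protease on the cardiomyocyte surface, and furin, a protease of the secretory pathway, cut the precursors into active hormone. The hormones act through Npr1, a receptor whose inner part makes cyclic GMP, while Npr2 is the related receptor for C-type natriuretic peptide. Npr3 takes the peptides into the cell and removes them, and neprilysin, the product of Mme, degrades them outside it. In the healthy adult mouse Nppa is made mainly in the atria, and both hormone genes are widely used as readouts of load on the ventricle.

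These 8 genes, the natriuretic peptide hormones, their processing enzymes and their receptors, were followed in left ventricles of 1-year-old male CD-1 mice, an outbred strain. Their dams were injected intraperitoneally once a day in early pregnancy, from embryonic day 6.5 to 9.5. Each injection held either caffeine, at 20 mg/kg, or only the saline used as vehicle. One label gives the end of exposure as day 10.5 instead. The paper also lists dobutamine, a drug that makes the heart contract more forcefully, for offspring of this exposure at younger ages. Whether any of the sequenced mice had received it is not stated. Each treatment had 3 hearts, poly(A) RNA from each was sequenced, and the deposited values are reads counted per gene. The comparison asks how gene expression in the adult left ventricle differed after exposure to caffeine in utero. The sources used here do not say which dam each heart came from, so p-values take the hearts as independent and measure only the spread between them.

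The 8 genes were chosen by their symbols, with no threshold on counts, from 43629 genes in the count files, and all 8 passed the filter on low counts that left 13092 genes for testing. The group was put together with the caffeine and vehicle difference of these hearts already known, that of Nppb above all. Fold changes and adjusted p-values of the 8 genes therefore describe where each stood in a fit over the whole table, and support nothing further. Levels are CPM, counts relative to the library total after scaling by TMM factors, and differences are log2 fold changes of caffeine over vehicle from edgeR's quasi-likelihood test. A gene was called when its Benjamini-Hochberg adjusted p over all genes tested was below 0.05 and its fold change above 1.5.

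Total counts ran from 9228359 to 10483101 in the vehicle hearts and from 7613011 to 9153997 in the caffeine hearts, so every caffeine library was smaller than every vehicle library. A count of 3 corresponded to 0.286 to 0.394 CPM, and the lowest count of any of the 8 genes in any heart was 101. The tissue label was checked against markers. Myl2, the ventricular myosin light chain, averaged 7510 CPM in vehicle and 7449 CPM in caffeine hearts. Of the atrial markers listed, Sln, Myl7 and Bmp10 had at most 3 counts in any heart. The other atrial markers were counted in every heart, Kcnj3 at 291 to 527, Stard10 at 167 to 329 and Myl4 at 5 to 18 counts.

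Both hormone genes lie on mouse chromosome 4 (GRCm38) on the plus strand, Nppb upstream at chr4:147985788-147987205 (ENSMUSG00000029019) and Nppa at chr4:148000722-148002079 (ENSMUSG00000041616), with 13516 bases between them. Stretches of 30 bases upstream of their RefSeq start sites (GRCm38.p6, plus strand) are shown because they carry motifs of factors known to act on these promoters. Capitals mark AGATAA and TGATAA, forms of the motif of GATA factors, GGAATG, which is CATTCC (the M-CAT motif of TEAD factors) on the opposite strand, and CAAGTG, a motif of NKX2-5.
Nppb, chr4:147985794-147985823, bases -106 to -77: aGGAATGcagcTGATAAatcagAGATAAcc
Nppa, chr4:148000588-148000617, bases -134 to -105: gctttgccgaacTGATAActttaaaagggc
Nppa, chr4:148000644-148000673, bases -78 to -49: gctttatcgctgCAAGTGacagaatgggga

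Positions are counted back from the RefSeq start, which is base 147985900 for Nppb and 148000722 for Nppa. The gene annotation used for exon lengths starts Nppb 112 bases further upstream, so that the Nppb stretch lies inside its first exon there, whereas the starts of Nppa coincide. Within the 250 bases before the start, both strands were searched for these motifs and for the TATA box TATAAA, which was found at -31 to -26 in Nppb and at -9 to -4 in Nppa. Among 32851 windows of the same length, 16.6% held at least 1 of the GATA forms, 1.33% held both, and 0.155% held both together with CATTCC. The windows that held CAAGTG made up 11.6%, and those that held TATAAA 12.4%. The motifs were not limited to the hormone genes. A Furin window held CAAGTG at -205 to -200 and, on the opposite strand, at -37 to -32, with TATAAA at -23 to -18, and a window of Mme held GGAATG at -232 to -227. The windows of Npr1, Npr2, Npr3 and Corin held none of the 5 motifs. A match describes letters only and does not show that a factor binds there.

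Nppb was the gene with the smallest p-value of the whole table, and its level was several times higher in the caffeine hearts. Vehicle replicates 1 to 3 had 158, 151 and 236 CPM, from 1615, 1599 and 2331 counts. Caffeine replicates 1 to 3 had 779, 672 and 608 CPM, from 5565, 5956 and 5187 counts. The lowest caffeine heart was thus above the highest vehicle heart, and the groups did not overlap. The mean was 182 ± 47.2 CPM in vehicle and 687 ± 86.3 CPM in caffeine hearts (SD, n = 3 each). The log2 fold change was 1.92 (SE 0.165, 95% interval 1.55 to 2.28), a fold of 3.78 with an edgeR adjusted p of 0.00228, and Nppb was called. By the size of its difference it was the 26th of the genes tested. Nppb ranked 919th, 943rd and 548th among all genes by count in the vehicle libraries and 143rd, 170th and 189th in the caffeine libraries, where it took 0.0731, 0.0651 and 0.0610% of the counts.

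**Figure D1:**
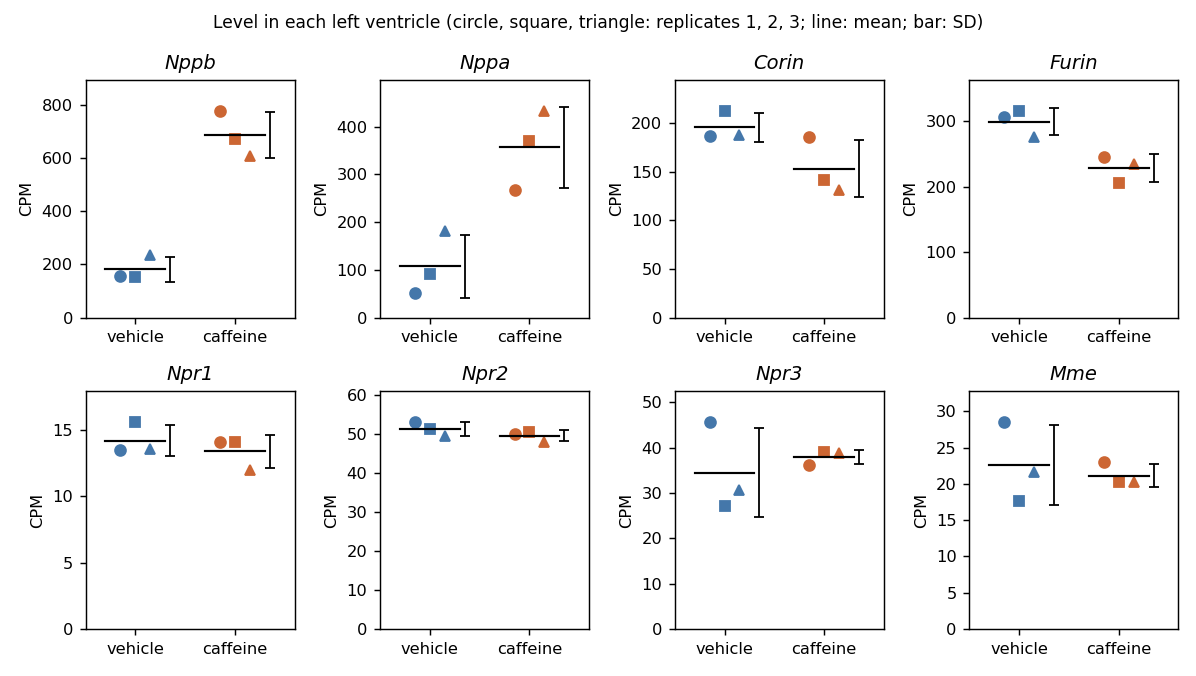
Level of each of the 8 genes in CPM (linear axis from 0) in each vehicle (blue) and caffeine (orange) heart, with circles, squares and triangles for replicates 1, 2 and 3, a line at the mean and a bar for the SD (n = 3). The hearts separated without overlap for Nppb, Nppa, Furin and, narrowly, Corin, and overlapped for Npr1, Npr2, Npr3 and Mme.

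Nppa was also higher in every caffeine heart, with a wider spread between hearts. The vehicle hearts had 51.3, 90.2 and 180.2 CPM, from 525, 953 and 1779 counts. The caffeine hearts had 266, 370.0 and 433 CPM, from 1902, 3278 and 3693 counts. The groups did not overlap, but vehicle replicate 3 stood well above the other vehicle hearts for both hormone genes. The means were 107 ± 66.1 CPM and 356 ± 84.2 CPM (SD, n = 3 each), and the SD was 61.7% of the mean in vehicle hearts against 26.0% for Nppb. The log2 fold change of 1.73 (SE 0.351, 95% interval 0.96 to 2.51), a fold of 3.33, had an edgeR adjusted p of 0.125 and was not called. Without vehicle replicate 3 it was 2.33 with an adjusted p of 0.00962, and over the other alternatives the adjusted p ran from 0.00053 to 0.362, apart from 1.06e-54 with no filter. That last fit gave Nppa 89630 degrees of freedom instead of 10.9, so that the spread between its own hearts hardly entered the test.

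The exons of Nppa share 532 of their 865 bases (61.5%) with Gm13054, a gene on the opposite strand. The library kit as described does not mark strand, and the strand setting of the read counting is not given in the sources used here, so reads from the shared bases cannot be assigned to either gene by strand. Gm13054 itself had at most 2 counts in any heart, and the counts do not show how many reads of the shared bases were left uncounted as ambiguous.

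The balance of the hormone genes within a heart, as counted, can be set beside their levels. Reads of the 532 bases that Nppa shares with Gm13054 may have been left uncounted, whereas Nppb shares 0 bases. The ratio and the sum below therefore may not weigh the hormone genes alike. The ratio of Nppb to Nppa counts was 3.08, 1.68 and 1.31 in the vehicle hearts and 2.93, 1.82 and 1.40 in the caffeine hearts. The ratio overlapped between treatments and its means were close, at 2.02 ± 0.932 and 2.05 ± 0.787 (SD, n = 3 each). The levels of Nppa and Nppb added up to 209, 241 and 416 CPM in the vehicle hearts and to 1045, 1042 and 1041 CPM in the caffeine hearts. The sums of the caffeine hearts were nearly equal with TMM scaling (SD 2.08 CPM) and with size factors as in DESeq2 (SD 3.66 CPM). With library size alone they were 982.6, 1010.5 and 1046.0 CPM (SD 31.8 CPM), so the evenness depended on the scaling.

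**Figure D2:**
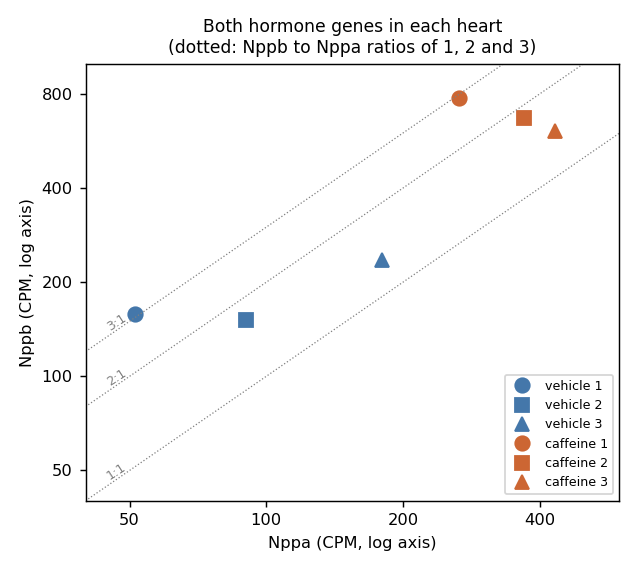
Nppb level against Nppa level in each heart (both log axes, CPM), blue for vehicle and orange for caffeine, with dotted lines at Nppb to Nppa ratios of 1, 2 and 3. The caffeine hearts lie above and to the right of the vehicle hearts. Ratios run from 1.31 to 3.08 in the vehicle hearts and from 1.40 to 2.93 in the caffeine hearts.

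Corin and Furin, whose products process the precursors, were lower on average in the caffeine hearts, by far less than the hormone genes were higher, and neither was called. Corin (ENSMUSG00000005220, chr5:72300025-72504473, minus strand) had 186.3, 212.5 and 187.5 CPM in the vehicle hearts and 186.1, 141.3 and 131.3 CPM in the caffeine hearts. Caffeine replicate 1 reached nearly the level of vehicle replicate 1, so the groups were apart by only a fraction of 1 CPM. The log2 fold change was -0.36 (SE 0.126, 95% interval -0.63 to -0.08, edgeR adjusted p = 0.408). Furin (ENSMUSG00000030530, chr7:80388585-80405436, minus strand) had 306, 316 and 276 CPM in the vehicle hearts and 245, 205 and 235 CPM in the caffeine hearts. Every caffeine heart was below every vehicle heart for Furin. Its mean was 299 ± 20.8 CPM in vehicle and 229 ± 21.1 CPM in caffeine hearts (SD, n = 3 each), and its log2 fold change was -0.39 (SE 0.0956, 95% interval -0.60 to -0.18, edgeR adjusted p = 0.213).

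Of the receptors that make cyclic GMP, neither differed by more than the spread between hearts. Npr1 (ENSMUSG00000027931, chr3:90450591-90465866, minus strand), the receptor of both cardiac hormones, had 13.5, 15.6 and 13.6 CPM in vehicle and 14.1, 14.1 and 12.0 CPM in caffeine hearts. Its log2 fold change of -0.09 had a 95% interval of -0.39 to 0.21 (SE 0.137, edgeR adjusted p = 0.910). Npr2 (ENSMUSG00000028469, chr4:43631935-43651244, plus strand) had 53.0, 51.2 and 49.3 CPM in vehicle and 50.0, 50.5 and 47.8 CPM in caffeine hearts. Both receptor genes overlapped between treatments. The log2 fold change of Npr2, the smallest in size of the 8 genes, was -0.05 (SE 0.0875, 95% interval -0.24 to 0.14, edgeR adjusted p = 0.924). The intervals exclude a change of the size fitted for either hormone gene.

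Npr3 (ENSMUSG00000022206, chr15:11839896-11907287, minus strand), the clearance receptor, had 45.6, 27.1 and 30.7 CPM in vehicle and 36.3, 39.1 and 38.7 CPM in caffeine hearts. Mme (ENSMUSG00000027820, chr3:63241537-63386030, plus strand) had 28.5, 17.7 and 21.6 CPM in vehicle and 23.0, 20.2 and 20.3 CPM in caffeine hearts. Vehicle replicate 1 was the highest of all 6 hearts and vehicle replicate 2 the lowest for both genes, and the treatments overlapped. The log2 fold change was 0.14 for Npr3 (SE 0.169, 95% interval -0.23 to 0.51, edgeR adjusted p = 0.879) and -0.10 for Mme (SE 0.168, 95% interval -0.47 to 0.27, edgeR adjusted p = 0.921). The sign rested on single hearts, since the value was -0.0064 for Npr3 without vehicle replicate 2 and 0.106 for Mme without vehicle replicate 1. The ratio of Npr1 to Npr3 levels was 0.438 ± 0.141 in vehicle and 0.353 ± 0.041 in caffeine hearts (SD, n = 3 each) and overlapped.

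**Figure D3:**
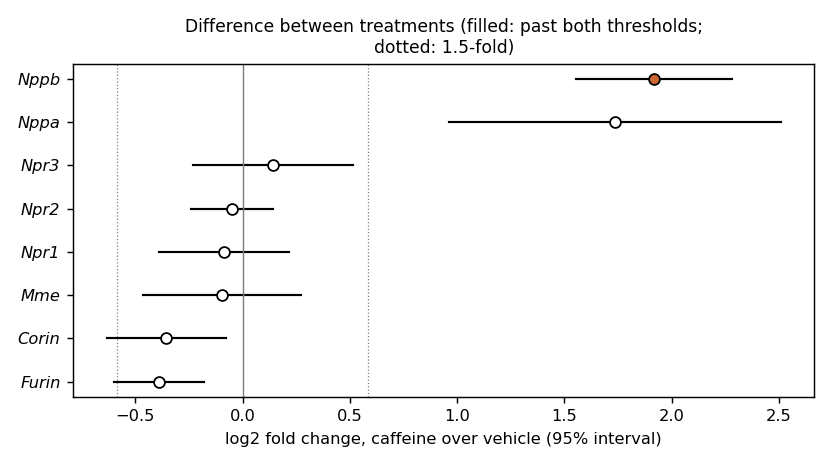
Log2 fold change of caffeine over vehicle for each of the 8 genes with its 95% interval, the filled point marking the gene past both thresholds and dotted lines a fold change of 1.5. Nppb at 1.92 and Nppa at 1.73 stand far to the right, and the other 6 lie between -0.39 and 0.14.

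Across the 8 genes, 1 was called, in the direction of higher in caffeine, where 0.107% of all genes tested were called in either direction (14 genes) and 0.084% as higher (11 genes). With library size as the only scaling, the calls over the whole table were 12 higher and 15 lower instead of 11 and 3. The hearts did not overlap for 4 of the 8 genes, against 14.2% of all genes tested, and every caffeine heart was higher for 2 of the 8, against 7.11%. Since the genes were selected on this contrast, nothing is read from these shares. Of the 8 log2 fold changes, 3 were above 0 and 5 below, and their median was -0.07 beside 0.0009 for all genes tested.

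Levels can be ordered between genes only per length, as CPM per kilobase of exon. The length joins the annotated exons of all transcripts of a gene, and which transcripts were expressed was not examined. In the vehicle hearts Nppb averaged 233 ± 60.5 CPM per kilobase, Nppa 124 ± 76.5, Corin 36.2 ± 2.74, Furin 32.6 ± 2.27, Npr2 11.0 ± 0.387, Npr3 3.67 ± 1.05, Npr1 2.97 ± 0.252 and Mme 1.96 ± 0.475 (SD, n = 3 each). The order of the means was the same in the caffeine hearts, from 879 ± 110 for Nppb and 412 ± 97.4 for Nppa down to 1.83 ± 0.136 for Mme. Neighbours in that order overlapped in the vehicle hearts for Nppb and Nppa (193.7 CPM per kilobase in the lowest Nppb heart, 208 in the highest Nppa heart) and for Npr3 and Npr1 (2.88 and 3.26). In the caffeine hearts Corin and Furin overlapped (24.3 and 26.7), and other neighbours did not overlap in either treatment, though Corin and Furin were nearly level in vehicle (34.5 and 34.4). The order of Nppa and Nppb depended on the exon bases counted, because over the 333 bases that Nppa does not share with Gm13054 its levels would be 322 and 1070.4 CPM per kilobase. Shared exon bases made up 11.7% for Npr1, the most among the other 7 genes, and 0 for Nppb and Mme.

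The genes around the hormone genes were examined next. Within 150 kb on either side lay 18 other genes, of which 12 could be tested, and edgeR's quasi-likelihood test called 0 of them, with 0 at an unadjusted p below 0.05 and 0 called by edgeR's exact and likelihood ratio tests, DESeq2 or limma-voom. Their log2 fold changes ran from -0.29 for Mad2l2 to 0.29 for Fv1, with a median of -0.07. Hearts did not overlap for 2 of the 12, Mad2l2 and Mfn2, and both were lower in caffeine hearts. Of all genes tested, 14.2% did not overlap in either direction, and 7.11% had every caffeine heart higher. Mfn2, which fuses mitochondria, had 988 ± 8.94 CPM in vehicle and 913 ± 50.6 CPM in caffeine hearts (SD, n = 3 each), a log2 fold change of -0.11. Clcn6, a chloride transporter gene close to Nppa, had a log2 fold change of -0.16, and Plod1, a collagen-modifying enzyme gene near Nppb, one of 0.11. Counts at an unadjusted p below 0.05, here and in the lists below, stand without the same share of all genes tested. Nothing is read from those counts.

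**Figure D4:**
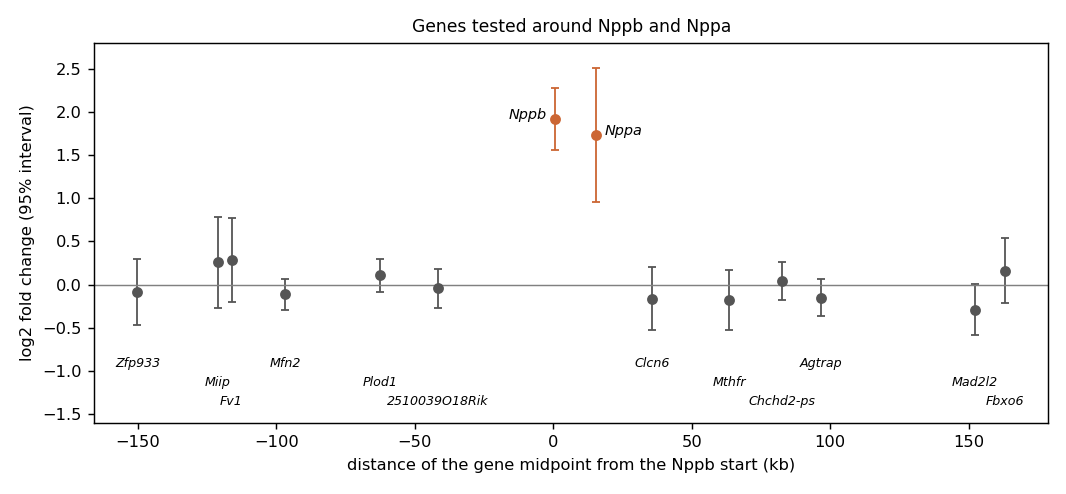
Log2 fold change of caffeine over vehicle with its 95% interval for each tested gene within 150 kb of Nppb and Nppa, against the distance of the gene's midpoint from the start of Nppb in kilobases. Nppb and Nppa (orange) reach 1.92 and 1.73, and the 12 other genes lie between -0.29 and 0.29.

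None of the other genes of the pathway was called. Of 21 listed genes for further peptides, proteases and the cyclic GMP response, 16 could be tested, 7 with a log2 fold change above 0 and 9 below, with a median of -0.04 beside 0.0009 for all genes. edgeR's quasi-likelihood test called 0, with 2 at an unadjusted p below 0.05, and 0 were called by edgeR's exact and likelihood ratio tests, DESeq2 or limma-voom. Nppc, which encodes C-type natriuretic peptide, had 0 counts in every heart. The largest differences were those of Pde3b, a phosphodiesterase gene, at -0.68 (4.10 ± 1.56 CPM in vehicle, 2.54 ± 0.555 in caffeine, edgeR adjusted p = 0.588) and Rgs2, which restrains signalling by G proteins, at -0.51 (28.0 ± 7.26 and 19.7 ± 2.31 CPM, edgeR adjusted p = 0.404). Prkg1, the kinase that cyclic GMP activates, had 9.68 ± 1.48 and 11.8 ± 0.748 CPM with a log2 fold change of 0.28 (edgeR adjusted p = 0.663). Hearts did not overlap for 3 of the 16, Prkg1 and Pcsk7 (0.16), higher in caffeine hearts, and Rgs2, lower, beside 14.2% of all genes tested.

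Of 19 transcription factors known to act on the hormone promoters, all could be tested, 5 had a log2 fold change above 0 and 14 below, and the median was -0.11. edgeR's quasi-likelihood test called 0 of the 19, with 2 at an unadjusted p below 0.05 and 0 called by the other 4 tests named above. Tbx5, a T-box factor of the heart, had the largest difference, -0.53, with 34.0 ± 4.76 CPM in vehicle and 23.5 ± 1.35 CPM in caffeine hearts (SD, n = 3 each, edgeR adjusted p = 0.193). Rest, the repressor that binds a silencer element of both hormone genes, was at -0.28 (edgeR adjusted p = 0.505). The hearts did not overlap for 3 of the 19, Tbx5, Rest and Mef2a (-0.19, edgeR adjusted p = 0.576), all lower in caffeine hearts. Among all genes tested, 14.2% did not overlap in either direction, and 7.11% had every caffeine heart higher. For the factors whose motifs are printed above, the log2 fold change was -0.10 for Gata4, -0.11 for Tead1 and -0.15 for Nkx2-5. Among other factors of the list, Srf stood at 0.04.

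Other genes used as readouts of load on heart muscle were called in part. Of 14 listed, 12 could be tested, 9 had a log2 fold change above 0 and 3 below, and the median was 0.35. The list was not split by the direction in which each gene answers load, so these signs are a description only. The quasi-likelihood test called 2, both higher in caffeine hearts, where it called 0.084% of all genes tested as higher. Acta1, skeletal actin, rose from 943 ± 175 to 2714 ± 378 CPM, a log2 fold change of 1.53 (edgeR adjusted p = 0.00296). Gdf15, a secreted stress factor, rose from 5.45 ± 2.55 to 22.6 ± 6.50 CPM, a log2 fold change of 2.06 (edgeR adjusted p = 0.0311). The count was 1 without vehicle replicate 2, caffeine replicate 2 or caffeine replicate 3, 3 without vehicle replicate 3 and by edgeR's exact and likelihood ratio tests, and 4 with no filter. Hearts did not overlap for 5 of the 12 genes, all higher in caffeine hearts, beside 7.11% of all genes tested with every caffeine heart higher. The list was chosen with earlier results of these data known, so nothing is read from these shares. Of the 5 genes, 3 were not called by the quasi-likelihood test. These were Myh7, the slow myosin heavy chain, at 0.36 (747 ± 33.3 and 957 ± 93.3 CPM, edgeR adjusted p = 0.246), Ankrd1 at 0.67 (2429 ± 903 and 3853 ± 79.6 CPM, edgeR adjusted p = 0.317) and Postn, a matrix protein, at 0.68 (17.4 ± 2.20 and 27.8 ± 6.31 CPM, edgeR adjusted p = 0.228), which the exact and likelihood ratio tests called. Myh6, the fast myosin heavy chain, was at -0.31.

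Of these genes, Acta1 and Gdf15 were also among those nearest to a hormone gene in their pattern over the 6 hearts. Likeness was measured as the root-mean-square difference of centred log2 CPM over the 6 hearts, a description that includes the difference between treatments. Nearest to Nppb were Dupd1 (0.0924), Acta1 (0.276), Grin2c (0.282), Tdrd9 (0.322) and Tceal7 (0.337), with Nppa 12th at 0.479. Nearest to Nppa were Gdf15 (0.178), Cela1 (0.395), Casc1 (0.423), Nppb (0.479) and Gm10699 (0.495). The prior count of 2 pulls genes of low counts together, and Dupd1 averaged 0.23 CPM in vehicle hearts.

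Markers of other cells and chambers are given because whole left ventricle was sequenced, where fewer cells of a type and less RNA per cell cannot be told apart. Ventricular cardiomyocyte markers summed to 49365 to 54993 CPM in vehicle and 47951 to 51562 CPM in caffeine hearts, with 0 of 10 called, 1 at an unadjusted p below 0.05, and Hey2 and Ttn lowest at -0.37. Of 6 atrial markers, 3 could be tested, all 3 had a log2 fold change below 0 and 0 were called (2 at an unadjusted p below 0.05), with Stard10 at -0.37 and Kcnj3 at -0.28. The atrial sum was 79.4 to 80.7 CPM in vehicle and 63.3 to 65.4 CPM in caffeine hearts, nearly all of it from Kcnj3 and Stard10, and Sln, Myl7 and Bmp10 were too low in every heart to compare. Conduction system markers also stood lower in caffeine hearts, at 59.6 to 72.8 against 91.5 to 96.1 CPM, and all 7 tested were below 0. The quasi-likelihood test called 0 of them, with 3 at an unadjusted p below 0.05, whereas edgeR's exact and likelihood ratio tests and DESeq2 called 2, Cntn2 (-3.12, edgeR adjusted p = 0.0584) and Hcn4 (-1.12, edgeR adjusted p = 0.102). Cntn2 had only 3, 11 and 9 counts in the caffeine hearts, against 40, 77 and 133 in vehicle. The largest part of the conduction sum was Irx3, with means of 47.0 CPM in vehicle and 36.1 CPM in caffeine hearts. Gja5 was nearly level, at -0.05.

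Fibroblast markers summed to 854.0 to 1017 CPM in vehicle and 1101 to 1262 CPM in caffeine hearts, and all 7 had a log2 fold change above 0, the largest being Col3a1 at 0.73 and Col1a1 at 0.38. Macrophage markers summed to 93.8 to 135.5 and 107.8 to 202.4 CPM, with all 6 above 0, led by Adgre1 at 0.93 and C1qa at 0.49. The quasi-likelihood test called 0 in either list, with 4 and 1 at an unadjusted p below 0.05. edgeR's exact and likelihood ratio tests called 1 in each (Col3a1 and Adgre1), and DESeq2 called 1 fibroblast marker. Endothelial and mural markers overlapped between treatments as sums, at 738 to 779 and 724 to 781 CPM for the endothelium (Emcn -0.24, Kdr -0.19) and 882 to 1035 and 863 to 1037 CPM for mural cells (Myh11 -0.41, Acta2 -0.31), with 0 called and 0 at an unadjusted p below 0.05 in either. The part of these cell types in the levels of the hormone genes was not tested.

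**Figure D5:**
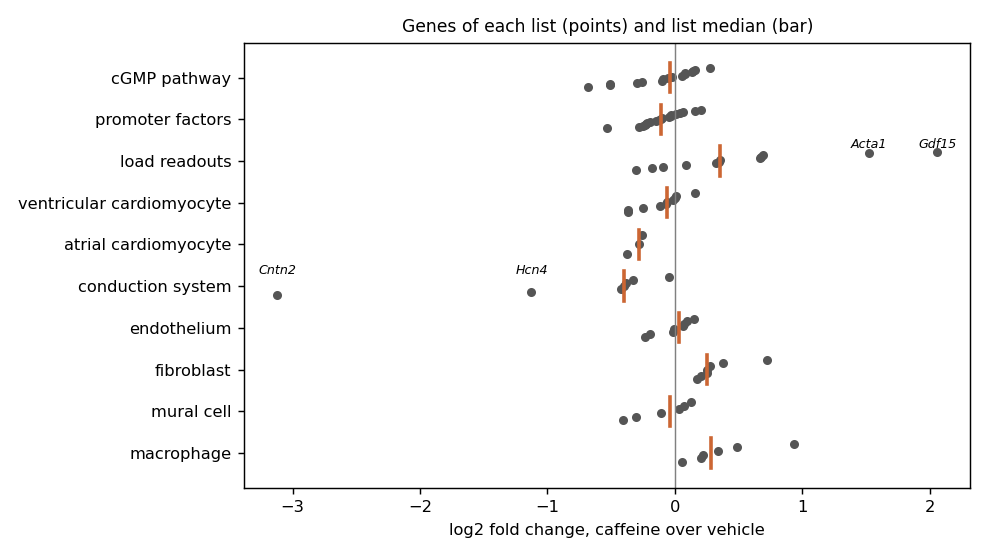
Log2 fold change of caffeine over vehicle for each tested gene of every list (points) with the list's median (orange bar). Medians run from -0.40 for conduction system markers to 0.35 for the load readouts, where Acta1 at 1.53 and Gdf15 at 2.06 stand apart.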

How the data were processed

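Left ventricles of 3 vehicle and 3 caffeine mice were analysed, grouped by the sample labels. The authors enriched mRNA on poly(A) beads, sequenced it from 1 end in 1 run, and, by the submitters' processing notes, used FastQC, TopHat2 on mm10 (GRCm38) and HTSeq. The deposited values are raw read counts per gene, not normalized and not pooled, for 43629 genes.

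Symbols, positions and exon lengths came from the GENCODE annotation of GRCm38, matched by Ensembl identifier (42462 with a symbol), and promoter sequences from RefSeq (GRCm38.p6). Of 113 listed symbols 112 were matched, and the other, Pde2a, was not analysed here. Genes were filtered with filterByExpr (minimum count 10, minimum total 15), TMM-normalized and tested in edgeR (glmQLFit, then glmQLFTest) for treatment alone. Replicates of a gene varied by 12.1% (biological coefficient of variation, from a common dispersion of 0.0145). Intervals are 95% intervals of the fitted log2 fold change, and depth floors cover counting error only. Other tests were edgeR's exact and likelihood ratio tests, DESeq2 and limma-voom, and other settings were size factors as in DESeq2, scaling by library size alone, omission of the filter, 10 counts in every sample, a replicate block, each heart left out and no fold threshold. Adding the few Gm13054 counts to Nppa, chosen after seeing the data, could not move its value and tests nothing. Fits were tested on simulated data.

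Named were the 8 genes, every called gene and the 2 largest differences of each list, up to 4 more per list, and the 5 genes nearest in pattern to each hormone gene. The members and lists were chosen with earlier results of these data known. Replicates were not duplicates of each other, since the chi-square between hearts of a group was 5.37 to 14.01 times its degrees of freedom. The fits ran in edgeR 4.0.16, DESeq2 1.42.0 and limma 3.58.1 under R 4.3.3, and summaries and plots in Python 3.11.15 with NumPy 2.4.6, pandas 2.3.3 and Matplotlib 3.10.9.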

Additional observations from a re-analysis of the deposited data

How the results depend on the processing

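Nppb was called under all 16 alternatives, with log2 fold changes from 1.80 to 2.15 when 1 heart was left out. Nppa stayed above 0 in all 16, from 1.40 to 2.33 when 1 heart was left out, and was called with no filter (1.72), by the exact test (1.73), by the likelihood ratio test (1.73) and without vehicle replicate 3. Under these settings 2 of the 8 genes were called, and 1 to 2 when 1 heart was left out. With the replicate number as a block, Nppa was called at 1.88, 2 of the 8 genes were called, and the calls over the whole table became 29 higher and 11 lower. The labels give only numbers, and deviations of same-numbered hearts correlated at 0.045, -0.03 and -0.038, so the numbers were not taken as pairs. Furin and Corin stayed below 0 throughout and were never past both thresholds. Under some settings only the fold threshold was not passed. Furin had an adjusted p of 0.0466 by DESeq2 and of 0.00616 by edgeR's quasi-likelihood test with no filter. Corin had one of 0.0221 by that test with no filter. Signs turned when 1 heart was left out for Npr3 (-0.0064 to 0.397) and Mme (-0.248 to 0.106). Over the whole table, 11 genes were called higher and 3 lower, against 145 and 95 with no filter, 61 and 33 by the exact test, 63 and 38 by the likelihood ratio test, 39 and 28 by DESeq2, 12 and 15 with library size only, and 4 to 17 higher and 0 to 13 lower when 1 heart was left out. The load readouts called were 4 with no filter, 3 by the exact and likelihood ratio tests and 1 to 3 when 1 heart was left out. Conduction markers called were 2 with library size only, no filter, the exact and likelihood ratio tests, DESeq2 and the replicate block, and 0 to 1 when 1 heart was left out. Fibroblast markers called were 1 with no filter, the exact and likelihood ratio tests and DESeq2, and macrophage markers 1 with no filter and the exact and likelihood ratio tests. With no filter, the degrees of freedom of Nppa rose from 10.9 to 89630, and its own spread hardly counted. Other causes were not tested. Library size only shifted the median of all genes by -0.085 on the log2 scale.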

Other observations

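The ratio of Nppb to Nppa counts was highest in replicate 1 and lowest in replicate 3 of both treatments, at 3.08 and 2.93 in replicate 1, 1.68 and 1.82 in replicate 2, and 1.31 and 1.40 in replicate 3 (vehicle first). The replicate numbers come from the sample titles, no label says what a number shares between treatments, and the order was noticed after the values were seen and was not tested.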
